A study of Rattus norvegicus with 8 samples.

Results

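The rat microRNAs rno-miR-10a-5p, rno-miR-10b-5p, rno-miR-196a-5p and rno-miR-196b-5p are made from genes that lie inside the Hox gene clusters, and they were followed here in the synovium, the tissue that lines the knee joint. They were taken by name from the array, a rule that itself uses no measured value, though earlier results of these data were known when they were chosen. All 4 were found among the 758 rat miRNAs on it, each under 2 probes of 8 spots per array. Total RNA had been measured on 8 single-colour (Cy3) arrays. In the 4 ACLT samples the anterior cruciate ligament of the left knee of Sprague-Dawley rats had been transected, which destabilises the joint and leads to osteoarthritis, and for the 4 sham samples the ligament had been exposed and left whole, so that both groups had an opened joint. The tissue came from the side of the knee away from the incision. The labels place the sampling at 2 weeks and the series title at day 14, while the design text says day 7. The labels number the replicates without saying that they were separate animals, so the p-values below speak of the spread between these 8 samples alone, and that spread may be technical. The age and sex of the rats are not given in the sources used here.

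Hox genes are transcription factors that give cells their position along the body axis and along the limb, and connective tissue cells of the adult keep a Hox code of the place they come from. The miR-10 and miR-196 genes sit between Hox genes and tend to be expressed with their neighbours. miR-196 is known for cutting and repressing Hoxb8 messenger RNA, and miR-10 for repressing Hox messages as well, so both families act on the clusters that hold them. In RefSeq's rat genome (GRCr8, used for neighbours only) each of the 4 genes lay in a different cluster. Mir10a lay between Hoxb5 and Hoxb4 and Mir10b within the annotated span of Hoxd4, on the side of Hoxd3. Mir196a lay between Hoxc10 and Hoxc9, and Mir196b between Hoxa9 and Hoxa10. Another miR-196 gene, Mir196c, lay between Hoxb13 and Hoxb9 in the cluster of Mir10a.

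The mature sequences from RefSeq (GRCr8) are shown because paralogs of each family differ so little that the probes have to separate near-identical molecules. Capitals mark the seed, bases 2 to 8, which pairs with target messages.
miR-10a-5p: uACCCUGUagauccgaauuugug
miR-10b-5p: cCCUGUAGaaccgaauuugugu
miR-10b-5p from 2 bases earlier in its hairpin: uACCCUGUagaaccgaauuugugu
miR-196a-5p: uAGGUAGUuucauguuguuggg
miR-196b-5p: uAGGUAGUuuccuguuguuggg
miR-196c-5p: uAGGUAGUuucguguuguuggg
RefSeq's entry for rat miR-10b-5p starts 2 bases further along its hairpin than that of miR-10a-5p, so the listed seeds differ, while the hairpin itself holds the miR-10a seed in the same register. Aligned that way, with positions counted from 1 at the 5′ end of miR-10a-5p, the 23 shared bases hold 1 substitution, U12A. miR-196a-5p and miR-196b-5p share their seed and differ by A12C, and miR-196c-5p differs from miR-196a-5p by A12G, so in both families the paralogs part at base 12. The seed of miR-196 was found in 3 of 693 mature entries, these 3. Probe sequences were not used here, so how far each probe tells its target from the paralog was not tested.

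All 4 miRNAs were detected on all 8 arrays, and for each the brighter probe, which represents it below, was well above background on every array. Levels are log2 signals relative to each array's 75th percentile, taken from the 136 probes that stood well above background throughout, so that 0 is that percentile, and they are compared between arrays and not between miRNAs. Array brightness, the percentile before scaling, ran from 289 to 1185 intensity units and was highest on sham replicate 4 (1185) and ACLT replicates 2 (1097) and 1 (797). Among markers, all 3 mesenchymal and both cartilage miRNAs were detected on every array and 0 of 7 epithelial ones on any. Of 4 tested leukocyte miRNAs 4 had negative differences (median -0.18), and of 4 tested striated muscle miRNAs 4 had positive ones (median 0.47), with 0 past the test in any marker list. Over all tested miRNAs 64.6% of the differences were negative (median -0.07). The 4 muscle differences had limma SEs of 0.77 to 1.63. miR-143-3p of smooth muscle, tested alone of its list, differed by -0.30. Of the marker lists, striated muscle varied most between arrays. The summed scaled signal of its 5 miRNAs was 5.05, 0.118, 13.7 and 16.3 for ACLT replicates 1 to 4, with miR-1-3p and miR-206-3p among those at the floor of the scale in replicate 2, and 2.70, 1.43, 6.30 and 2.24 for sham replicates 1 to 4.

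None of the 4 Hox-cluster miRNAs passed the test for a difference between ACLT and sham synovium. miR-196b-5p and miR-10a-5p had lower means after ACLT, by 1.23-fold and 1.28-fold, and their paralogs miR-196a-5p and miR-10b-5p had group means within 1.01-fold and 1.05-fold of each other. By limma with Benjamini-Hochberg adjustment at 0.05, 0 of 4 passed, beside 0 of 113 tested miRNAs (0.0%), and at an unadjusted p under 0.05 the counts were 0 of 4 and 8 of 113 (7.08%). The difference was negative for 2 of the 4 and for 64.6% of all tested miRNAs, whose median was -0.07. For 2 of the 4, and for 27.4% of all tested, each ACLT array was under the mean of the sham arrays. The groups overlapped for each of the 4, and 0.0% of all tested miRNAs had groups that did not. In a bulk tissue sample, fewer cells of a type and less of a miRNA per cell cannot be told apart.

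**Figure D1:**
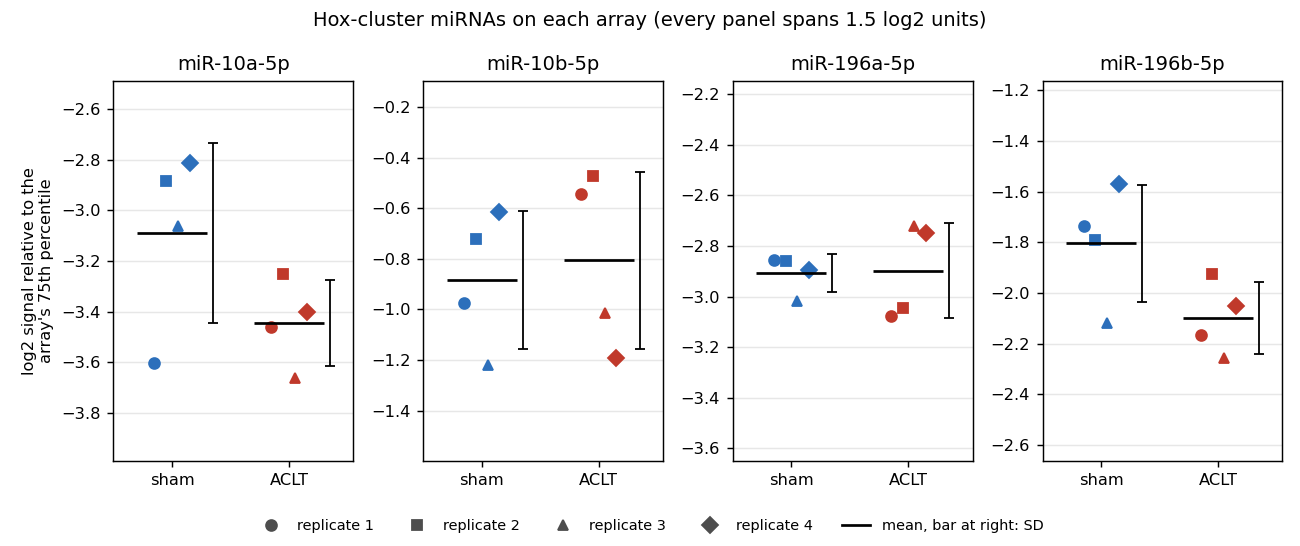
Log2 signal of each Hox-cluster miRNA relative to the array's 75th percentile, by group, with 1 symbol per replicate, the mean as a line and the SD as a bar. For miR-10a-5p and miR-196b-5p all ACLT arrays lie below the sham mean, with sham replicate 1 or 3 among them, and the sign of both differences turns with the 75th percentile over all probes.

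The HoxB product rno-miR-10a-5p had log2 signals of -3.46, -3.25, -3.66 and -3.40 in ACLT replicates 1 to 4 and of -3.60, -2.88, -3.06 and -2.81 in sham replicates 1 to 4. Sham replicate 1 lay below 3 of the ACLT arrays, and the other sham arrays lay above all of them. The ACLT mean was -3.45 ± 0.17 and the sham mean -3.09 ± 0.36 (SD, n = 4 each), a log2 difference of -0.35 with a 95% interval of -0.80 to 0.087 (limma SE 0.19, adjusted p = 0.703). The interval runs from 1.74-fold lower to 1.06-fold higher after ACLT. Its sign turned when every probe set the 75th percentile (0.023) and in the authors' value table (0.11). With striated muscle probes left out of the main percentile, the difference was -0.17 (limma unadjusted p = 0.385, adjusted p = 0.820). Without sham replicate 1 the difference was -0.52 (limma unadjusted p = 0.00408, adjusted p = 0.428). The second probe was at the floor on 6 of 8 arrays, all 4 ACLT arrays among them, and differed by -0.11. Between spots of the same probe on an array, the signal of the brighter probe varied with a median CV of 8.12% (1.74% to 22.2%).

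The HoxD product rno-miR-10b-5p stood at -0.55, -0.47, -1.01 and -1.19 on the ACLT arrays and at -0.98, -0.72, -1.22 and -0.61 on the sham arrays. It was high on ACLT replicates 1 and 2 and sham replicate 4 and low on ACLT replicates 3 and 4 and sham replicate 3, so the spread lay within the groups. The means were -0.81 ± 0.35 and -0.88 ± 0.27 (SD, n = 4 each), with a difference of 0.08 and an interval of -0.42 to 0.57 (limma SE 0.21, adjusted p = 0.955), which leaves room for a change of up to 1.49-fold upward or 1.34-fold downward. Both probes gave small positive differences (0.08 and 0.10). The sign turned under labelling spike-in scaling (-0.24) and without any of ACLT replicate 1, ACLT replicate 2 or sham replicate 3 (-0.010 to -0.036), and between the rows of the slide. Row 1 carried the arrays numbered 1 and 2 in either group and gave 0.34, and row 2, with those numbered 3 and 4, gave -0.19. The 3 arrays lowest for miR-10b-5p were the 3 with the highest summed striated muscle signal, given above. The 3 arrays highest for it were the 3 brightest. The part of muscle or of brightness in these levels was not tested.

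The HoxC product rno-miR-196a-5p had the smallest sham SD of the 4. It was at -2.86, -2.86, -3.02 and -2.90 on the sham arrays and at -3.08, -3.04, -2.72 and -2.75 on the ACLT arrays. All 4 sham arrays fell between a low pair, ACLT replicates 1 and 2, and a high pair, ACLT replicates 3 and 4. The ACLT mean was -2.90 ± 0.19 and the sham mean -2.91 ± 0.08 (SD, n = 4 each), with a difference of 0.0097 and an interval of -0.23 to 0.25 (limma SE 0.10, adjusted p = 0.987), or at most 1.17-fold lower and 1.19-fold higher. Slide row 1 alone gave -0.20 (limma unadjusted p = 0.0240, adjusted p = 0.151) and slide row 2 gave 0.22 (unadjusted p = 0.0734, adjusted p = 0.656), with 2 arrays a group. Within the ACLT group, the low pair were the brighter arrays with less striated muscle signal, and the high pair the dimmer ones with more. Among the sham arrays, replicate 4, the brightest array of either group, stood at -2.90. Sham replicate 3, with the most muscle signal of its group, was the lowest sham array at -3.02. The part of brightness or muscle in these levels was not tested. The sign of the miR-196a-5p difference also turned under labelling spike-in scaling (-0.31). The second probe of miR-196a-5p, well above background on all 8 arrays, differed by 0.0008.

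The HoxA product rno-miR-196b-5p stood at -2.17, -1.93, -2.26 and -2.05 on the ACLT arrays and at -1.73, -1.79, -2.12 and -1.57 on the sham arrays. Sham replicate 3 lay among the ACLT arrays, and the other sham arrays lay above all 4. The ACLT mean was -2.10 ± 0.14 and the sham mean -1.80 ± 0.23 (SD, n = 4 each), a difference of -0.30 with an interval of -0.61 to 0.015 (limma SE 0.13, unadjusted p = 0.0592, adjusted p = 0.645), or from 1.52-fold lower to 1.01-fold higher. Its second probe lay at -4.36 to -3.92 on the ACLT arrays and -4.03 to -3.67 on the sham arrays, a difference of -0.36, and the mean of both probes by -0.33 (limma unadjusted p = 0.00249, adjusted p = 0.281). For the brighter probe, both slide rows gave similar values, -0.28 in row 1 and -0.31 in row 2. With striated muscle probes left out of the main percentile, the miR-196b-5p difference was -0.11 (limma unadjusted p = 0.454, adjusted p = 0.909). It turned positive when every probe set the 75th percentile (0.08), without scaling (0.028) and in the authors' value table (0.013).

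Because those scalings move all miRNAs together, the differences were also read against the median of the tested miRNAs, which ran from -0.40 with labelling spike-in scaling to 0.25 with every probe in the percentile. Relative to that median, miR-10a-5p was lower after ACLT by 0.088 to 0.28 and miR-196b-5p by 0.16 to 0.26 under all 8 ways of scaling or summarising compared, the one used above included. miR-10b-5p was higher by 0.091 to 0.21 and miR-196a-5p by 0.083 to 0.15. A scaling that divides each array by a single value shifts all differences alike, apart from values at the floor. Agreement between such scalings was therefore largely fixed in advance. The authors' value table and the Feature Extraction summary per miRNA gave the same relative values (-0.10 for miR-10a-5p and -0.20 for miR-196b-5p in both). These 8 also share their arrays and are not separate checks of a sign.

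**Figure D2:**
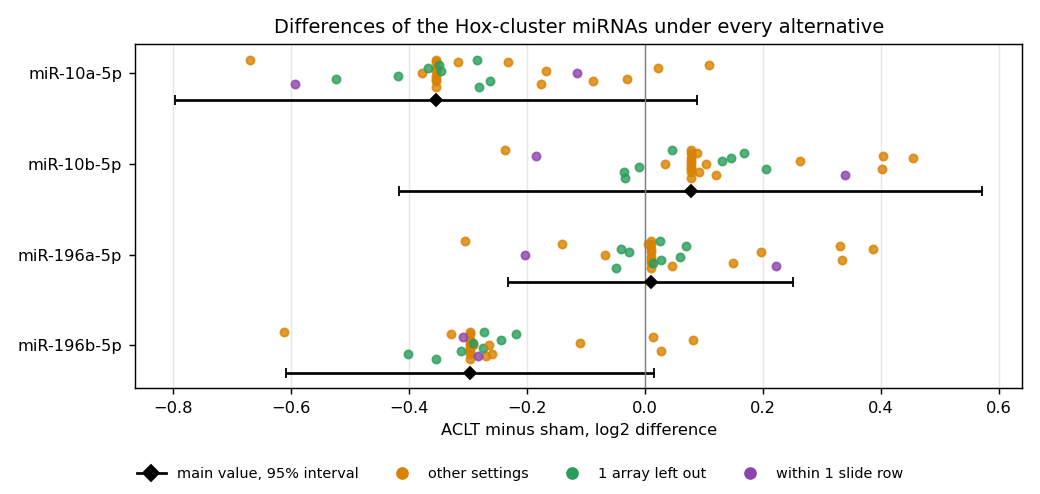
ACLT minus sham log2 difference of each Hox-cluster miRNA, with the main value and its 95% interval as a black diamond and every alternative as a dot. All 4 main intervals include 0, and every miRNA has alternatives on both sides of 0, from -0.67 to 0.11 for miR-10a-5p and from -0.61 to 0.08 for miR-196b-5p.

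A ratio of 2 miRNAs on the same array is free of the scaling, and shows only whether they changed unequally. The log2 ratio of miR-10a-5p over miR-10b-5p was -2.92, -2.78, -2.65 and -2.21 on the ACLT arrays and -2.62, -2.16, -1.84 and -2.20 on the sham arrays. Its means were -2.64 ± 0.31 and -2.21 ± 0.32 (SD, n = 4 each), lower after ACLT by 1.35-fold, with ACLT replicate 4 and sham replicate 1 each lying among the other group. The ratio of miR-196b-5p over miR-196a-5p was 0.91, 1.12, 0.47 and 0.70 on the ACLT arrays and 1.12, 1.07, 0.90 and 1.33 on the sham arrays. Its means were 0.80 ± 0.28 and 1.10 ± 0.18 (SD, n = 4 each), lower after ACLT by 1.24-fold, again with overlap. The ratio of miR-10a-5p over miR-196b-5p, from different families, was nearly the same in both groups, with an ACLT mean of -1.35 ± 0.05 and a sham mean of -1.29 ± 0.41 (SD, n = 4 each). On the ACLT arrays it spanned -1.41 to -1.30, and on the sham arrays -1.87 to -0.94. Of the 3 other ratios between the families, 2 differed more: miR-10a-5p over miR-196a-5p was lower after ACLT by 1.29-fold (-0.55 ± 0.32 against -0.18 ± 0.38), and miR-10b-5p over miR-196b-5p was higher by 1.30-fold (1.29 ± 0.33 against 0.92 ± 0.13, SD, n = 4 each). For the latter, 3 of 4 ACLT arrays lay above the sham mean, and the groups overlapped in both. miR-10b-5p over miR-196a-5p differed by 0.07. It was highest on the 3 brightest arrays, ACLT replicates 2 (2.57) and 1 (2.53) and sham replicate 4 (2.28). The part of brightness in the ratios was not tested. These ratios were described and not tested.

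**Figure D3:**
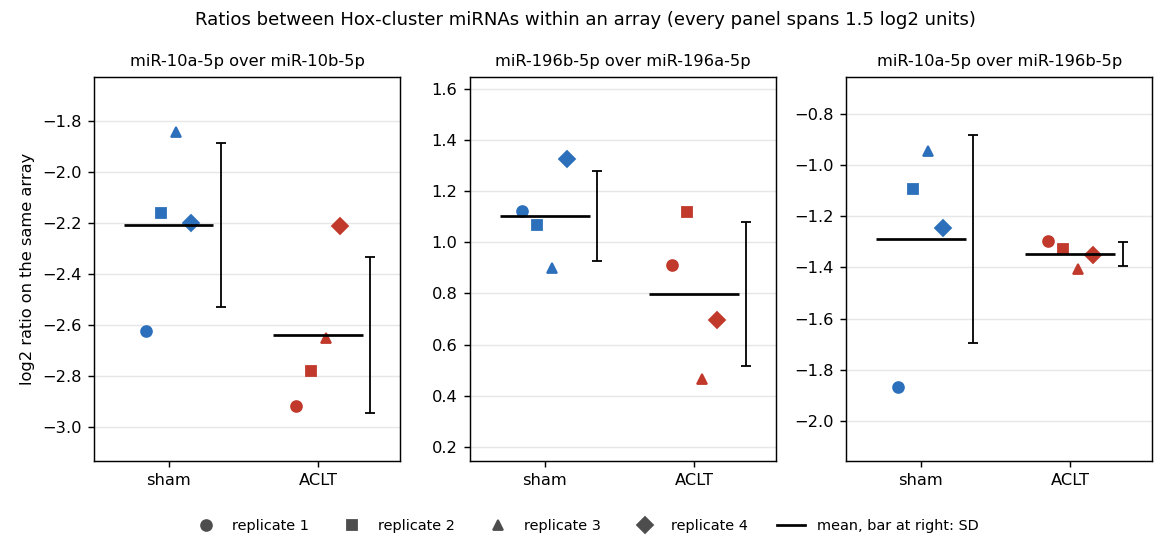
Log2 ratio of 2 Hox-cluster miRNAs on the same array, by group, with 1 symbol per replicate, the mean as a line and the SD as a bar. Both paralog ratios have lower means after ACLT (-2.64 against -2.21 and 0.80 against 1.10) with overlapping arrays, and the ratio of miR-10a-5p over miR-196b-5p stays between -1.41 and -1.30 on the ACLT arrays.

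The 4 did not vary over the arrays as a unit. Pearson's r over the 8 arrays was 0.57 between miR-10a-5p and miR-196b-5p, 0.27 between miR-10a-5p and miR-10b-5p, 0.0095 between miR-196a-5p and miR-196b-5p, and -0.53 between miR-10b-5p and miR-196a-5p. Each was then set against the other 77 miRNAs that were tested and above the floor on every array, and the 3 most alike are named. All these values share their arrays and the scaling, so r is given as a description.

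The pattern of miR-10a-5p was most like those of the erythroid miRNAs miR-144-3p (r = 0.98, Spearman's rho = 1.0) and miR-451-5p (r = 0.91), which are made from neighbouring hairpins and abundant in red blood cells, and then miR-126a-3p of endothelium (r = 0.81). Without the 2 arrays farthest from the median of miR-10a-5p, sham replicates 2 and 4, r was 0.99, 0.97 and 0.63. miR-144-3p measured -3.17, -2.71, -3.87 and -3.10 in ACLT replicates 1 to 4 against -3.48, -2.26, -2.32 and -2.04 in sham replicates 1 to 4. The arrays stood in the same order for both miRNAs, with sham replicate 1 and ACLT replicate 3 lowest. Differences after ACLT were -0.69 for miR-144-3p (limma SE 0.38, adjusted p = 0.732) and -0.53 for miR-451-5p (SE 0.43, adjusted p = 0.840), beside -0.35 for miR-10a-5p. By slide row the differences were -0.07 and -1.31 for miR-144-3p, 0.36 and -1.42 for miR-451-5p, and -0.12 and -0.59 for miR-10a-5p, in rows 1 and 2. Without sham replicate 1 they were -1.01, -0.91 and -0.52. With every probe in the percentile, or without scaling, miR-144-3p ranked 10th in likeness in place of 1st. All 3 erythroid markers were detected on every array, and their summed scaled signal was 0.521 to 0.947 on the ACLT arrays and 0.488 to 1.47 on the sham arrays. Of these, miR-486 went the other way, with a difference of 0.14 (limma SE 0.51, adjusted p = 0.955). It was at the floor on 4 of 8 arrays, among them sham replicate 4, where miR-10a-5p was highest. On ACLT replicate 3, where miR-10a-5p was lowest, miR-486 stood at -3.35. The 3 arrays highest for miR-486 were ACLT replicate 4 (-2.88), sham replicate 3 (-2.94) and ACLT replicate 3. They were also the 3 with the highest summed striated muscle signal. The part of muscle in the level of miR-486 was not tested. Of the endothelial markers, miR-126a-3p was detected on all arrays (difference -0.20) and miR-126a-5p on none. The part of blood or vessels in the level of miR-10a-5p was not tested.

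miR-10b-5p was most like miR-15b-5p, a relative of the cell cycle regulator miR-16 (r = 0.95), let-7f-5p (r = 0.95) and let-7i-5p (r = 0.94), and without sham replicate 3 and ACLT replicate 2 the r values were 0.93, 0.93 and 0.95. Its median r over the 77 was 0.42. With quantile normalisation miR-15b-5p stayed at rank 1 (r = 0.95), while let-7f-5p had r = 0.80 (rank 21) and let-7i-5p r = 0.82 (rank 18). For miR-196a-5p the closest were miR-30e-5p (r = 0.74), miR-30a-5p (r = 0.73) and miR-221-3p (r = 0.70), against a median r of -0.06. Without ACLT replicates 1 and 2 these were 0.51, 0.48 and 0.68. For miR-30e-5p r was 0.89 (ranked 2) with striated muscle probes left out of the percentile and 0.17 (ranked 39) with quantile normalisation. With spike-in scaling, with every probe in the percentile and without scaling it was 0.84, 0.92 and 0.95, but ranked 47, 48 and 52 of 77. For miR-30a-5p r was 0.82 (ranked 6) with striated muscle probes left out and -0.34 (ranked 62) with quantile normalisation. It ranked 72, 68 and 70 with spike-in scaling, every probe in the percentile and no scaling. Among the sham arrays miR-30e-5p was highest, at -2.46, on replicate 3, where miR-196a-5p was lowest. miR-196b-5p was most like miR-322-5p of the miR-15/16 seed family (r = 0.79), let-7e-5p (r = 0.78) and miR-146a-5p, which is induced by NF-kB (r = 0.78), and without ACLT replicate 3 and sham replicate 4 r was 0.54, 0.73 and 0.50.

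**Figure D4:**
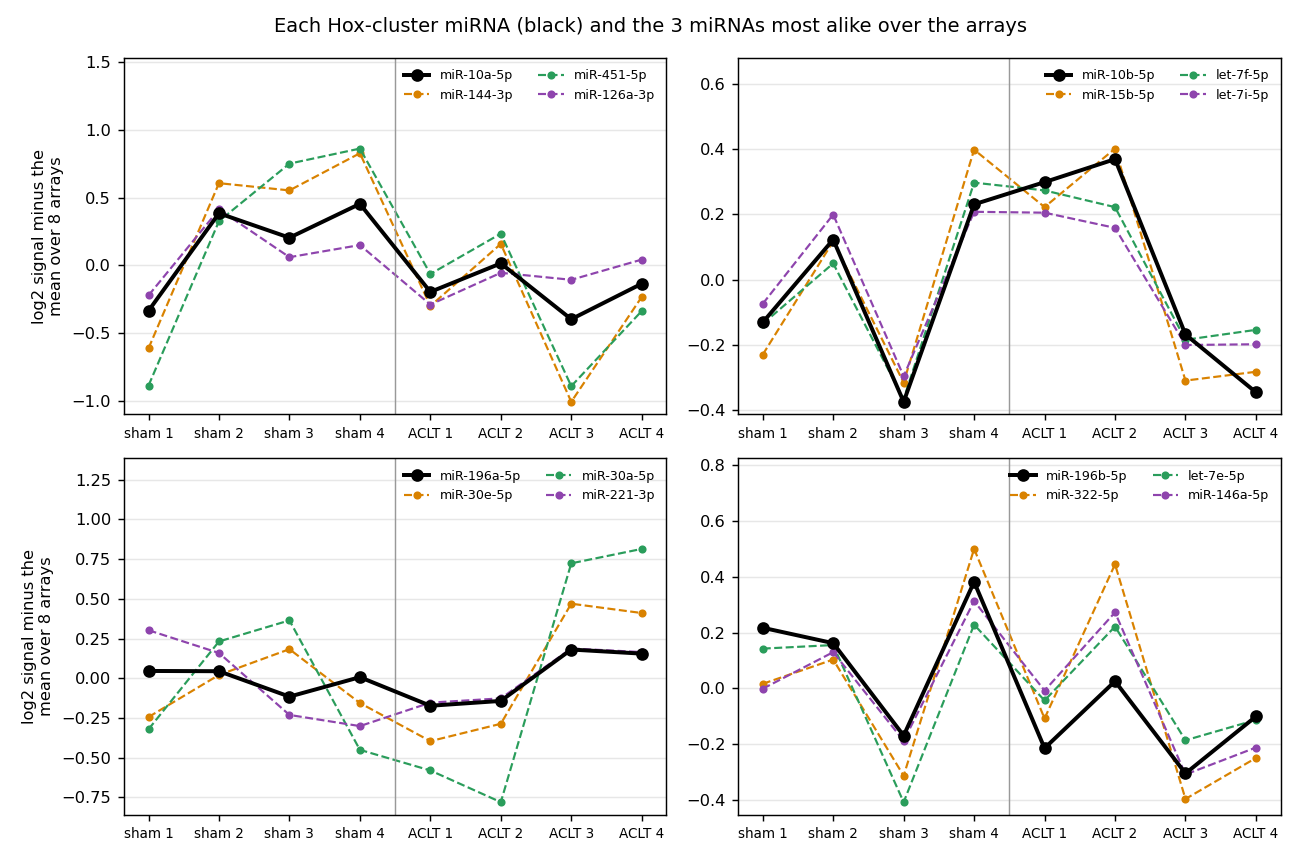
Log2 signal of each Hox-cluster miRNA (black) and of the 3 miRNAs most like it (dashed), each minus its mean over the 8 arrays, by array. miR-10a-5p follows miR-144-3p and miR-451-5p (r = 0.98 and 0.91) with a smaller amplitude, and miR-10b-5p follows miR-15b-5p and let-7f-5p (r = 0.95 each, 0.80 for let-7f-5p with quantile normalisation).

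Of 7 other products of Hox-cluster miRNA genes on the array, 1 was detected on any array, miR-196c-5p. The partner strands miR-10a-3p, miR-10b-3p, miR-196a-3p, miR-196b-3p and miR-196c-3p, and miR-615 of the HoxC cluster, were called detected on none of the 8 arrays, so in each of the 5 hairpins of these families the 5′ strand was the one detected. miR-196c-5p was detected on all 8 arrays close to the floor of -4.48, at which it lay on 3 of them. The ACLT mean was -4.37 ± 0.12, the sham mean -4.21 ± 0.19 (SD, n = 4 each), and the difference -0.16 (limma SE 0.11, adjusted p = 0.806).

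miR-10 has relatives outside the Hox clusters in the families of miR-100 (with miR-99a and miR-99b) and miR-125, and 2 of them are printed to show how much is shared.
miR-100-5p: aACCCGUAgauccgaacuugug
miR-125b-5p: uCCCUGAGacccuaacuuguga
With the seed again in capitals, miR-100-5p shares a run of 11 bases with miR-10a-5p that starts at base 7 of miR-10a-5p, and neither sequence holds the miR-10a seed. Of the 5 relatives listed, 4 were tested, all 4 had negative differences (median -0.23, against -0.07 for all tested), and 0 passed by limma (1 at an unadjusted p under 0.05). miR-100-5p differed by -0.23 (SE 0.13), miR-99a-5p by -0.24 (SE 0.18), miR-125a-5p by -0.14 (SE 0.22) and miR-125b-5p by -0.38 (SE 0.13, limma adjusted p = 0.645).

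The let-7 family resembles miR-196 in that the 7 bases of the miR-196 seed (AGGUAGU) stand 1 base further along, at bases 3 to 9, in 7 of the 8 relatives listed. let-7a is printed as the example, with its own seed in capitals.
let-7a-5p: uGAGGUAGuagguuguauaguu
Of 8 listed let-7 relatives all were tested, 3 had positive and 5 negative differences (median -0.01), and 0 passed by limma, with 0 at an unadjusted p under 0.05. The list leaves out let-7g-5p, which has the let-7a seed and is on the array. let-7d-5p differed by 0.14 (SE 0.12), let-7c-5p by -0.10 (SE 0.15), let-7f-5p by 0.08 (SE 0.18) and let-7e-5p, whose base 9 departs from the miR-196 seed, by -0.06 (SE 0.16).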

How the data were processed

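MicroRNA was measured on 8 Agilent rat miRNA arrays, 4 ACLT and 4 sham by their titles. Per the labels' protocols, Cy3-labelled cRNA was made from 50 ng of total RNA with a kit whose name is that of a messenger RNA kit, which the sources used here do not settle. Per the file headers, spots were quantified by Feature Extraction, version 10.7.3.1. The deposited processed signal is an intensity, background-subtracted and not scaled between arrays, and the deposited flags (other columns) mark outlier, well-above-background and detected spots. The authors' value table equals Feature Extraction's linear summary per miRNA (largest difference 0, column medians 0.1), with no centring or scaling.

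Outlier-marked spots were left out (9.01% to 11.1%) and the spots of a probe averaged. 0 spots were saturated, and 10.5% to 17.0% were well above background. Signals were expressed relative to the 75th percentile of 136 of the 1806 probes on the same array, values under 0.0449 were set to that floor, and log2 was taken. A miRNA was represented by the probe with the highest mean over all arrays. The test took in the 113 miRNAs that every array of the ACLT or the sham group detected, with limma 3.58.1 in R 4.3.3 (eBayes, no covariate, Benjamini-Hochberg at 0.05). Only this fit was tried on simulated data, whose noise was independent between miRNAs and arrays. Spot filtering, scaling, the floor and the choice of probe were not tried in that way. The arrays lay on 1 slide with 1 scan date. The number of arrays limits the precision. The miRNAs and lists were chosen with earlier results of these data known. Named are the 4 miRNAs, up to 4 members per list by smallest p, and the 3 miRNAs with the highest r for each. Mature sequences were found for 103 of 113 tested miRNAs.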

Additional observations from a re-analysis of the deposited data

Results flagged for a closer look

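Arrays far from the other 3 of their group were looked for in 61 group values of the miRNAs and ratios named here, where chance gives about 1 in 20, and 2 were found. For the log2 ratio of miR-10a-5p over miR-196a-5p, sham replicate 1 had -0.75 while replicates 2 to 4 had -0.05 to 0.08, the gap taking up 0.847 of the group's range. For let-7e-5p, sham replicate 3 had -0.66 while the other 3 ranged over -0.11 to -0.02, with a gap of 0.865 of the range.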

How the results depend on the processing

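Under 28 or 29 alternatives each, 0 of the 4 miRNAs passed, and the lowest adjusted p-values were 0.389 for miR-10a-5p, 0.268 for miR-10b-5p, 0.151 for miR-196a-5p and 0.281 for miR-196b-5p. The sign turned with the 75th percentile over all probes for miR-10a-5p (0.023) and miR-196b-5p (0.081), in the authors' value table for the same miRNAs (0.11 and 0.013), without scaling for miR-196b-5p (0.028), and with labelling spike-in scaling for miR-10b-5p (-0.24) and miR-196a-5p (-0.31). For miR-196a-5p it also turned with outlier spots kept (-0.068), normexp on median signals (-0.14) and within slide row 1 (-0.20), and for miR-10b-5p within slide row 2 (-0.19). The cause of these turns was not tested. With striated muscle probes left out of the main percentile each sign stayed. The differences were then -0.17 for miR-10a-5p, 0.26 for miR-10b-5p, 0.20 for miR-196a-5p and -0.11 for miR-196b-5p. Leaving out 1 array in turn gave -0.52 to -0.26 for miR-10a-5p, -0.036 to 0.21 for miR-10b-5p, -0.049 to 0.069 for miR-196a-5p and -0.40 to -0.22 for miR-196b-5p. Within slide row 1, limma called 8 of 113 miRNAs, 0 of them among the 4, and every other alternative called 0. A 4 times higher floor left miR-10a-5p and miR-196a-5p at the floor on all arrays and gave them no value. For arrays of the same replicate number, deviations from the group means had r from -0.44 to 0.76 (0.49 for number 2 and 0.76 for number 3). Arrays of unlike numbers reached 0.84 (ACLT replicate 4 with sham replicate 3), so r cannot decide whether the numbers pair the samples. The replicate block gave the same differences (-0.35, 0.077, 0.0097 and -0.30) and 0 calls, with 4 miRNAs at an unadjusted p under 0.05 in place of 8.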
